A study of Mus musculus with 70 samples.

Results

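The sites described here are the TRβ binding sites of untreated mouse cerebral cortex, all 5164 rows of the authors' deposited peak list for this tissue. The 3 deposited lists of the series hold 14991 regions, the others being 8051 TRβ sites of untreated pituitary and 1776 T3-regulated regions of open chromatin. Those 1776 regions come from pituitary nuclei of hypothyroid against hyperthyroid mice, not from cortex. No site was left out. The study asked where the thyroid hormone receptor TRβ sits on chromatin in the pituitary gland and how its ligand T3 changes chromatin and gene expression there, with the cerebral cortex as the tissue of comparison. Sites were mapped by ChAP-seq (chromatin affinity purification and sequencing). Both cortex groups were adult male mice without treatment (euthyroid), labelled C57BL/6J. The 3 HAB;BirA libraries came from mice that were *Thrb* HAB/HAB;*Rosa26* BirA/BirA, in which TRβ made from its own gene carries a tag that the biotin ligase BirA biotinylates, so that streptavidin beads capture it with its chromatin. The 3 control libraries came from *Rosa26* BirA/BirA mice, which share the ligase but lack the tag. Each cortex sample held tissue of a pair of mice. In the labels the genotype field of the control samples repeats the HAB genotype, and the samples were grouped by their titles. The C57BL/6J label also differs from the study's methods. These give mixed strain backgrounds, with C57BL/6J in the HAB line and FVB/N in the BirA line. The tag marks both TRβ1 and TRβ2, and it marks the receptor in every cortex cell type that expresses *Thrb*.

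Thyroid hormone receptors are nuclear receptors that bind DNA with or without T3, usually as heterodimers with a retinoid X receptor (RXR). Their best known binding sequence is a direct repeat of AGGTCA with a 4 base spacer (DR4). Without T3 they recruit corepressors such as NCoR, and T3 exchanges these for coactivators. In the cortex, TRα is the more abundant receptor and TRβ acts beside it in neurons, and thyroid hormone is required for neuronal differentiation, myelination and synaptic development.

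For every site the list gives 1 read count from the merged HAB;BirA libraries, called HAB reads here, and 1 from the merged control libraries, called control reads. No value per library was used here, so a difference between sites has no replicate check and no single site was tested. The intervals given with counts are exact 95% Poisson intervals, those of the HAB share of reads are exact 95% binomial intervals, and those of shares of sites are 95% Wilson intervals. They cover counting error only, since reads are not independent molecules. Sites were ranked by their excess, which is HAB reads minus control reads, not scaled for the depth of the libraries.

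Direct repeats were sought in every site, because the DR4 is the sequence that TRβ is known to bind. The lines show those of named strong sites, of hormone-responsive genes and of the site with a perfect repeat, with 7 bases on each side. Capitals mark the 2 half-sites, read 5′ to 3′ on the strand given, and the coordinates are those of the 16 base repeat in mm9.
Rgma, chr7:80479862-80479877, plus strand: ctctctgAGGTCAattaAGGTCAtcccaac
Rcc2, chr4:140257111-140257126, minus strand: tctagacAGGTCAcctgAGGACActcgctg
Zmynd8, chr2:165651917-165651932, plus strand: cccaagaAGGTCAgatgAGGACAtcaaatc
Klf13, chr7:71056990-71057005, plus strand: gaatctgAGGTCAgctgAGGACAacagttt
Sorl1, chr9:41991188-41991203, minus strand: attaccaAGGTTAgcttAAGTCAgagcctt
Neat1, chr19:5845836-5845851, plus strand: agtacacGGGTCGcctcAGGTCAccacgcc
Atp2b2, chr6:114026881-114026896, minus strand: gaatggtTGGTAAccctAGGTCAtcagagt
Dbp, chr7:52963218-52963233, minus strand: taagcccGGGTCAgccgAGGACAccagttc
Hr, chr14:70951958-70951973, minus strand: cgggtggAGGGCAtctgAGGACAtcccctc
Ky, chr9:102401809-102401824, minus strand: gagaggaAGGTTAtgtgAGGACAagcgtct
Klf9, chr19:23166384-23166399, plus strand: gagtgtgGAGTCAttcaAGGTCAccagcag
The repeat near *Rgma* was the one among the 5164 sites that matched all 12 half-site bases, and its site held only 14 HAB reads and 1 control read. Those of *Rcc2*, *Zmynd8* and *Klf13* matched 11 bases, and the others shown matched 10. *Rgma*, *Rcc2*, *Zmynd8* and *Atp2b2* were chosen for display after their values were seen. The sites of *Rgma* (40456 bp upstream), *Sorl1* (58771 bp), *Atp2b2* (33794 bp), *Ky* (5978 bp) and *Klf9* (49216 bp) lie between genes, those of *Zmynd8* and *Klf13* in introns, that of *Rcc2* over an untranslated exon at a transcription start, and the others over exons at a start. At *Atp2b2*, a plasma membrane calcium pump gene, the site held 78 HAB and 5 control reads, and at *Rcc2* it held 59 and 7.

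A typical cortex site was weak and nearly free of control reads. The reads come from whole tissue, so binding in few cells and weak binding in many cannot be told apart. HAB reads ranged from 7 to 1587 with a median of 13 and quartiles of 11 and 20. Control reads ranged from 0 to 202 with a median of 1, and 1166 sites (22.6%, interval 21.5 to 23.7%) had none. Site width ranged from 50 to 4650 bp with a median of 450 bp. Over all sites there were 93779 HAB reads and 11492 control reads, a ratio of 8.16. The excess had a median of 12, and 66 sites reached 50 or more.

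**Figure D1:**
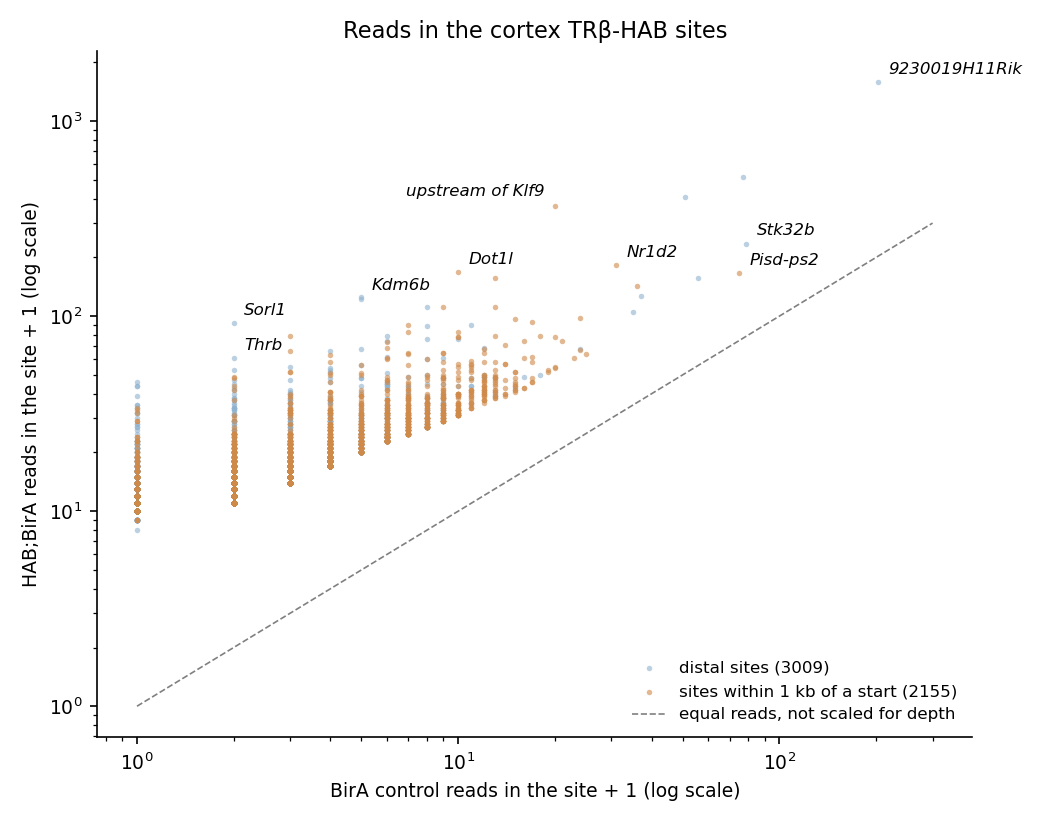
HAB;BirA reads against BirA control reads in each of the 5164 cortex sites, both plus 1 on log scales, with 1 point per site, distal sites in blue and sites within 1 kb of a transcription start in orange. All sites lie above the dashed line of equal reads, most hold 3 control reads or fewer, and the sites near *9230019H11Rik* and *Stk32b* are high in both genotypes.

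Of the 25 sites with the largest excess, the 3 highest lay side by side on chromosome 10, between 7229351 and 7237150, upstream of *9230019H11Rik*, a gene of unknown function. They held 514, 1587 and 405 HAB reads. Their control reads were 76, 202 and 50, so that the same stretch also had the highest control count of the list. The HAB share of reads in the highest of the 3 was 88.7% (interval 87.2 to 90.1%), and none of them overlapped a pituitary site or held a DR4.

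The next site by excess covered the start of the non-coding gene *2410080I02Rik* on chromosome 19 (23208201 to 23211250), 4466 bp upstream of *Klf9*, the nearest protein-coding gene. *Klf9* encodes a Krüppel-like transcription factor induced by thyroid hormone in neurons. The site held 366 HAB reads (interval 329 to 405) against 19 control reads (11.4 to 29.7), a HAB share of 95.1%. It was 3050 bp wide, overlapped 5 separate pituitary sites with 20 to 108 HAB reads, and overlapped a T3-regulated open region of the pituitary. There were 2 further *Klf9* sites. The site at its start held 45 HAB and 11 control reads, and the other, 49216 bp upstream, held 19 HAB reads and 1 control read and has the repeat shown above.

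Among the strong sites were those of several genes of histone-modifying enzymes. *Dot1l*, the histone H3 lysine 79 methyltransferase, had a site over its start (chromosome 10, 80217601 to 80218050) with 167 HAB reads (interval 143 to 194) and 9 control reads. A second *Dot1l* site, in an intron 23850 bp from the gene start, held 10 HAB reads and no control read. Near *Kdm6b*, a histone H3 lysine 27 demethylase, a site 4224 bp upstream held 122 HAB reads (101 to 146) and 4 control reads. *Suv420h2*, a histone H4 lysine 20 methyltransferase, had 89 HAB and 6 control reads in a site over its start. All 3 of these strong sites overlapped a pituitary site, where HAB reads were 186 at *Dot1l*, 129 near *Kdm6b* and 152 at *Suv420h2*.

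Genes of nuclear receptors also had strong sites. *Nr1d2*, which encodes the haem-binding repressor REV-ERBβ of the circadian clock, had 182 HAB reads (157 to 210) and 30 control reads over its start on chromosome 14. *Rxrb*, a heterodimer partner of TRβ, had 111 HAB reads (91.3 to 134) and 12 control reads over its start on chromosome 17. *Thrb* itself had 60 HAB reads (45.8 to 77.2) and 1 control read in an intergenic site on chromosome 14 (18465451 to 18465950), 27524 bp upstream of its annotated start. This site overlapped a pituitary site with 64 HAB reads and a T3-regulated open region of the pituitary. The best direct repeat of the *Thrb* site had 3 mismatches, past the limit used here. *Thra*, the gene of the other receptor, had 18 HAB and 2 control reads in a site 1602 bp upstream.

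The remaining strong sites with few control reads belonged to genes of varied function. The site of *Rev1*, a translesion DNA polymerase, held 156 HAB and 12 control reads over its start. Sites 1276 bp upstream of *Eef2*, a translation elongation factor, and 73318 bp upstream of *Ppp2r5c*, a phosphatase 2A subunit, held 124 against 4 and 111 against 7 reads. Sites at the starts of *Usp32*, *Tpt1*, *Nup62* and *Hnrnpl* held 82 to 110 HAB reads and 6 to 16 control reads. Upstream of *Sorl1*, the neuronal sorting receptor of amyloid precursor protein, an intergenic site held 91 HAB reads and 1 control read. *Pfkfb3*, a regulator of glycolysis, and *Txn2*, mitochondrial thioredoxin, had sites 33323 bp and 4665 bp upstream with 88 and 89 HAB reads. The start of *Neat1*, the long RNA that builds paraspeckles, held 78 HAB reads and 2 control reads. Of the 25 strongest sites, the one near *Klf9* was the only one that overlapped a T3-regulated open region of the pituitary. Over all cortex sites, 101 of 5164 (1.96%) overlapped such a region.

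Control reads were not low everywhere. In 15 sites they numbered over 20. Besides the 3 sites near *9230019H11Rik*, the most were 78 in a site in *Stk32b* (234 HAB reads, HAB share 75.0%, interval 69.8 to 79.7%), 74 at the start of *Pisd-ps2* (165 HAB reads, 69.0%, 62.8 to 74.8%) and 55 near *Sfi1* (155 HAB reads, 73.8%, 67.3 to 79.6%). The sites at *5031425E22Rik* and *Atp11b* held 141 against 35 and 126 against 36 reads. The *Sfi1* and *Pisd-ps2* sites, on chromosomes 11 and 17, hold the same best repeat and nearly the same flanks.
Sfi1, chr11:3024116-3024131, plus strand: ctctctcCGGCCAtctcAGGTCAgtgcagg
Pisd-ps2, chr17:3083964-3083979, minus strand: ctctctcCGGCCAtctcAGGTCAgtgtagg
Reads from near-identical copies can be counted at either place, so these values are uncertain.

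By excess, stronger sites lay more often at transcription starts, were wider and overlapped the pituitary list more often. Of all sites, 2155 (41.7%, interval 40.4 to 43.1%) lay within 1 kb of an annotated start and are called start-site, the other 3009 distal, and 1485 covered a start. The start-site share was 24.1% at an excess under 10 (n = 864), 35.1% at 10 to 14 (n = 2469), 57.4% at 15 to 24 (n = 1275), 63.5% at 25 to 49 (n = 490) and 57.6% at 50 or more (n = 66). The share that overlapped a pituitary site went from 5.32% through 8.22%, 24.9% and 52.0% to 83.3% over the same bands, and was 17.0% over all cortex sites. Median width went from 300 to 850 bp and median control reads from 1 to 8, so that strength, width and control reads moved together. Their parts in these shares were not tested. The start-site direction was not kept by other measures. The start-site share was 38.3% at a false discovery rate of at most 1e-10 and 34.8% in sites with 3 control reads or fewer. Both lay below the 41.7% of all sites.

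**Figure D2:**
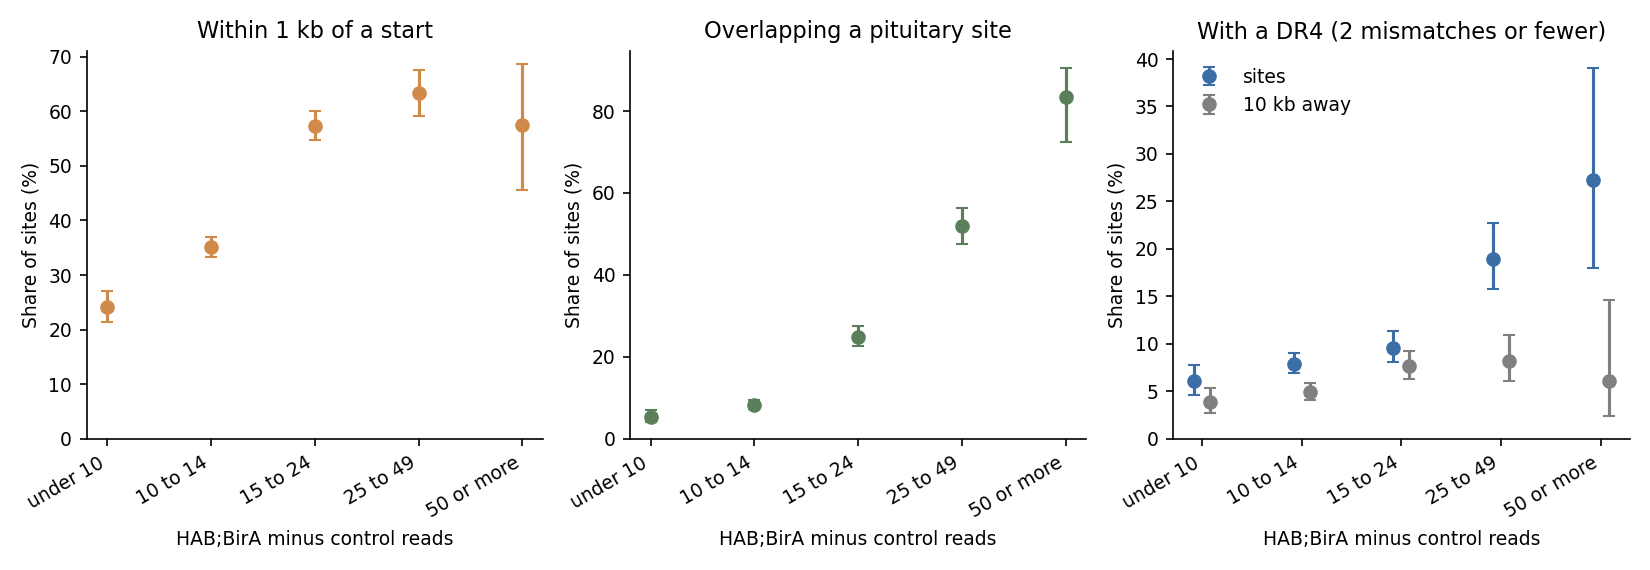
Share of cortex sites (%) within 1 kb of a start (left), overlapping a pituitary site (middle) and with a DR4 of 2 mismatches or fewer (right) in 5 bands of HAB;BirA minus control reads, with 95% Wilson intervals. The start-site share levels off at 57.4 to 63.5% above an excess of 15, the pituitary share rises to 83.3%, and the DR4 share rises to 27.3% in the strongest band while regions of the same length 10 kb away stay at 3.82 to 8.16%.

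Start-site and distal sites differed in their reads and base composition. The start-site sites had a median of 17 HAB and 2 control reads, a median width of 500 bp and a median GC content of 64.2%. The distal sites had 12 HAB reads and 1 control read, 400 bp and 52.5%. Summed reads gave a ratio of HAB to control reads of 6.63 at start-site and 10.4 at distal sites. At 227 of the start-site sites (10.5%) protein-coding genes on both strands started within 1 kb. Non-coding genes alone accounted for 111 start-site sites.

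Of the distal sites, 1559 (51.8%, interval 50.0 to 53.6%) lay in a protein-coding gene, 1317 of them in an intron, 189 over a coding exon, 45 over an untranslated exon and 8 over an exon of a transcript without coding sequence. The other 1450 lay between genes at a median of 37001.5 bp from the nearest protein-coding start, 300 of them within 10 kb and 359 beyond 100 kb.

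The direct repeat with a 4 base spacer was found in 310 of 3009 distal sites (10.3%, interval 9.27 to 11.4%) and 170 of 2155 start-site sites (7.89%, 6.82 to 9.10%) at up to 2 mismatches over the 12 half-site bases on either strand. Regions of the same length 10 kb away held it in 5.25% and 6.36% of cases. The distal share was 2.41 percentage points above the start-site share (Fisher's exact test, two-sided, p = 0.00351, adjusted over the 2 tests of repeats 0.00351). The test compares regions of 1 merged list, not replicates, and distal sites are narrower. With the false discovery rate held to at most 1e-10, or with at most 1 mismatch, the difference no longer passed 0.05.

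Among 9 spacings from 0 to 8 bases, the spacing of 4 gave the highest share in the sites, both distal and start-site. In distal sites the other spacings lay between 3.86% and 6.18% and the regions 10 kb away between 4.72% and 8.01%. In start-site sites the other spacings lay between 3.48% and 5.75%. The regions 10 kb from start-site sites lay between 5.34% and 10.6% over the 9 spacings, with the spacings of 0, 1 and 2 bases at 10.6%, 9.47% and 9.74%, above the 7.89% that the spacing of 4 reached in the sites themselves. The single half-site AGGTCA, on either strand, was no more frequent in distal sites (23.0%) than 10 kb away (25.7%).

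**Figure D3:**
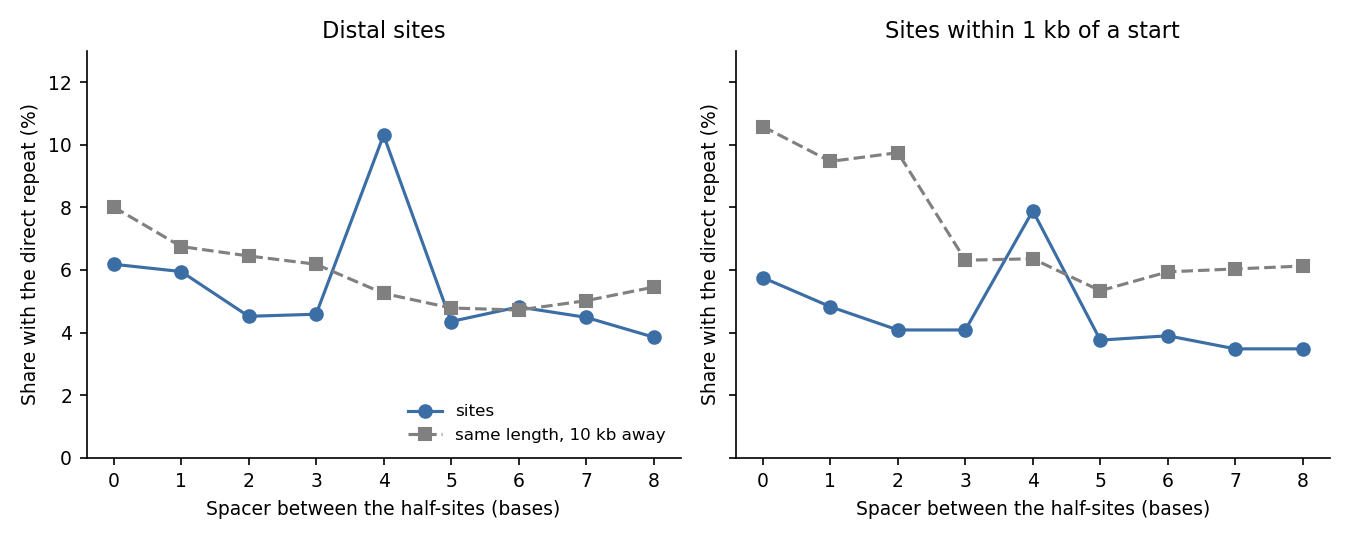
Share (%) of distal sites (left) and of sites within 1 kb of a start (right) with a direct repeat of AGGTCA at up to 2 mismatches, against the spacer length in bases, in the sites (blue) and in regions of the same length 10 kb away (grey). The sites peak at a spacer of 4, at 10.3% and 7.89%, and the grey line has no such peak.

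The DR4 share went with strength. In distal sites it was 6.55% at an excess under 10, 9.48% at 10 to 14, 12.5% at 15 to 24, 22.3% at 25 to 49 and 25.0% (7 of 28) at 50 or more. In start-site sites it was 4.33%, 4.97%, 7.38%, 17.0% and 28.9% (11 of 38), so that the 2 classes did not keep their order in the strongest band. Regions of the same length 10 kb away held a DR4 in 3.96%, 5.12%, 6.81%, 6.15% and 7.14% of cases for the distal bands. For the start-site bands they held it in 3.37%, 4.50%, 8.20%, 9.32% and 5.26%. Up to an excess of 24, the start-site share thus lay near or below that of the regions 10 kb away. Distal sites that overlapped a pituitary site held a DR4 in 26.5% of cases (86 of 325) and the others in 8.35% (224 of 2684). For the start-site sites the same shares were 16.8% (93 of 552) and 4.80% (77 of 1603), beside 4.95% of 500 bp windows at the 20173 protein-coding gene models without a cortex site at a start.

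The pituitary list, made in the same way, held a DR4 in 1400 of 5983 distal sites (23.4%), 13.1 percentage points more than the cortex list (Fisher's exact test, two-sided, p = 1.59e-54, adjusted 3.17e-54). The lists share the overlapping sites above and each is 1 merged comparison, so the test compares lists and not tissues.

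Other short sequences were read as letters on both strands, with no claim that a factor binds. At start-site sites the ETS core CCGGAAG was in 19.9%, the GC box GGGCGG in 73.1%, the cAMP response element TGACGTCA in 3.67% and the E-box CACGTG in 14.8%. At protein-coding starts without a site the shares were 13.5%, 49.7%, 2.47% and 10.1%. The 500 bp windows there had a lower GC content, with a median of 56.2%, and the part of composition in these shares was not tested. At distal sites the AP-1 letters TGANTCA, bound by FOS and JUN proteins, were in 17.3% against 11.9% of regions 10 kb away, while the D-box letters TTANGTAA were in 2.56% against 3.86%.

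Gene groups were compared by how many of their protein-coding genes held a site, beside the same share of all genes. Of 22208 protein-coding genes, 9.78% had a site within 1 kb of a start and 17.5% had one in the gene body or 5 kb around it. The median length of all genes was 15526.5 bp, and the second share depends on length.

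The circadian clock genes had the highest share of the 33 lists. Of 18 genes, 11 (61.1%) had a site at a start and 14 (77.8%) in or near the body, with a median gene length of 38044 bp. The genes with a start-site site were the activators *Arntl* and *Clock*, the repressors *Nr1d2*, *Bhlhe40*, *Bhlhe41*, *Per1* and *Per3*, the PAR bZIP output factors *Dbp*, *Tef* and *Hlf*, and *Rora*, which activates *Arntl*. Strength varied widely among them. *Nr1d2* (above) was highest. *Bhlhe40* had 97 HAB reads (interval 78.7 to 118) and 23 control reads, *Dbp* 60 (45.8 to 77.2) and 5, *Tef* 51 and 14, *Bhlhe41* 46 and 10, *Per3* 42 and 11, *Arntl* 33 and 2 and *Clock* 29 and 7. *Per1* held 15 HAB reads and 1 control read. *Hlf* had a weak start-site site of 13 against 2 reads and a strong one of 75 (59.0 to 94.0) against 9 reads 26870 bp upstream. *Nr1d1*, the gene of REV-ERBα, had 29 HAB and 5 control reads in an intron, 1003 bp from the nearest start. *Cry1*, *Cry2* and *Rorb* were among the members with no site in or near the body. In the pituitary list 16 of the 18 had one in or near the body and 7 at a start, where the shares over all protein-coding genes were 20.3% and 8.74%.

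Immediate early genes, which respond to neuronal activity, had a site at a start in 7 of 20 genes (35.0%) and in or near the body in 11 (55.0%), at a median gene length of 3633 bp. *Egr1* held 41 HAB and 5 control reads at its start, *Fosl2* 38 and 10, *Jun* 29 and 6, *Arc* 22 and 5 and *Dusp1* 18 and none. *Fos* and *Npas4* had no site within 5 kb. A site farther out that was assigned to *Fos* held 11 HAB reads and 1 control read, with a DR4 of 11 matching bases.

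Corepressor and coactivator genes had 5 of 16 at a start and 7 in or near the body. *Ncoa3*, a coactivator gene, held 37 HAB and 10 control reads at its start, *Nrip1* 33 and 10, *Sin3a* 29 and 6 and *Ncoa2* 26 and 3. *Crebbp*, *Ep300* and *Hdac3* had none in or near the body.

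The list of T3-responsive genes of rodent brain had 8 of 30 genes with a site at a start (26.7%) and 10 in or near the body (33.3%). *Hr*, a corepressor gene induced by T3 in brain, had 40 HAB reads (28.6 to 54.5) and 3 control reads over its start, with the repeat shown above, and 19 against 1 read 2619 bp upstream. The pituitary list had 154 HAB and 40 control reads over the start and 69 against 5 at the upstream place. *Flywch2* held 63 HAB and 6 control reads, *Stat5a* 40 and 3, *Sema7a* 20 and 3 and *Nefh* 20 and 4. *Mbp*, a myelin gene, had 17 HAB and 2 control reads in an intron. *Nrgn*, *Reln*, *Camk4*, *Bdnf* and *Homer1* had no site in or near the body.

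Among genes of thyroid hormone supply and reception, *Rxrb* and *Rxra* had sites at a start and *Thra* had 2 sites in or near its body, of which the second is the *Nr1d1* intron site, since the genes adjoin. *Dio2* and *Slco1c1*, which provide T3 to the brain, had none. *Dio3*, the inactivating deiodinase, had none within 5 kb, and its nearest listed site, 50728 bp upstream, held 29 HAB and 5 control reads.

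Counts in or near the body were higher for neuronal genes than for genes of other cortex cells. Of 16 excitatory neuron genes, 8 (50.0%) had a site in or near the body and 4 at a start, among them *Neurod2* (19 HAB reads and 1 control read at the start), *Cux2* and *Tbr1*, and *Neurod2* had a further site of 38 against 3 reads 15362 bp from its start. Of 16 inhibitory neuron genes, 5 had a site in or near the body, none of those assigned to the list above 13 HAB reads. They numbered 2 of 12 for astrocyte genes and 2 of 12 for vascular genes (16.7% each), near the 17.5% of all protein-coding genes. For oligodendrocyte genes the count was 1 of 14 (7.14%), and for microglia genes none of 12. At a start, 2 of 16 inhibitory neuron genes (12.5%) and 1 of 12 astrocyte genes (8.33%) had a site, beside 9.78% of all genes. All these lists are short, and no difference between them was tested. *Slc1a2*, the astrocytic glutamate transporter, was the exception in strength with 59 HAB and 5 control reads at its start. That site overlapped no pituitary site, but the pituitary list had 2 other sites in or near the body of *Slc1a2*. The pituitary list had 3 of the 16 excitatory neuron genes in or near the body (18.8%), near its 20.3% of all genes. It also had 3 of 16 inhibitory neuron genes, 4 of 12 astrocyte genes (33.3%), 2 of 14 oligodendrocyte, 2 of 12 microglia and 1 of 12 vascular genes. Pituitary lineage and hormone genes had no cortex site in 18, where the pituitary list had 7, and *Gh* was among those without a cortex site. These counts concern chromatin and do not measure RNA, so they do not check which cells the tissue held.

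Synaptic genes held sites at moderate strength. The vesicle and release list had 6 of 22 at a start (27.3%) and 9 in or near the body (40.9%), led by *Syt1*, the calcium sensor of release, with 36 HAB and 5 control reads at its start, *Napa* with 38 and 12 and *Syn2* with 24 and 4. The pituitary list had 1 of the 22 at a start (4.55%, against 8.74% of all genes) and 8 in or near the body (36.4%, against 20.3%). Of 21 postsynaptic scaffold and adhesion genes, 4 had a site at a start and 9 in or near the body, led by *Dlgap2* (32 and 6) and *Dlg4* (27 and 4), both at a start. Voltage-gated potassium channel genes had 7 of 40 at a start and 15 in or near the body. Sodium and calcium channel genes and ionotropic glutamate receptor genes had 1 of 31 and 1 of 18 at a start, and 9 and 5 in or near the body, at median lengths of 110510 and 298303 bp. In or near the body the pituitary list had 11 of the 21 postsynaptic genes and 15 of the 40 potassium channel genes. It had 15 of the 31 sodium and calcium channel genes and 9 of the 18 glutamate receptor genes. None of these 4 counts lay below that of the cortex list. At a start the pituitary list had 1, 4, 1 and 0 genes in the same order.

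**Figure D4:**
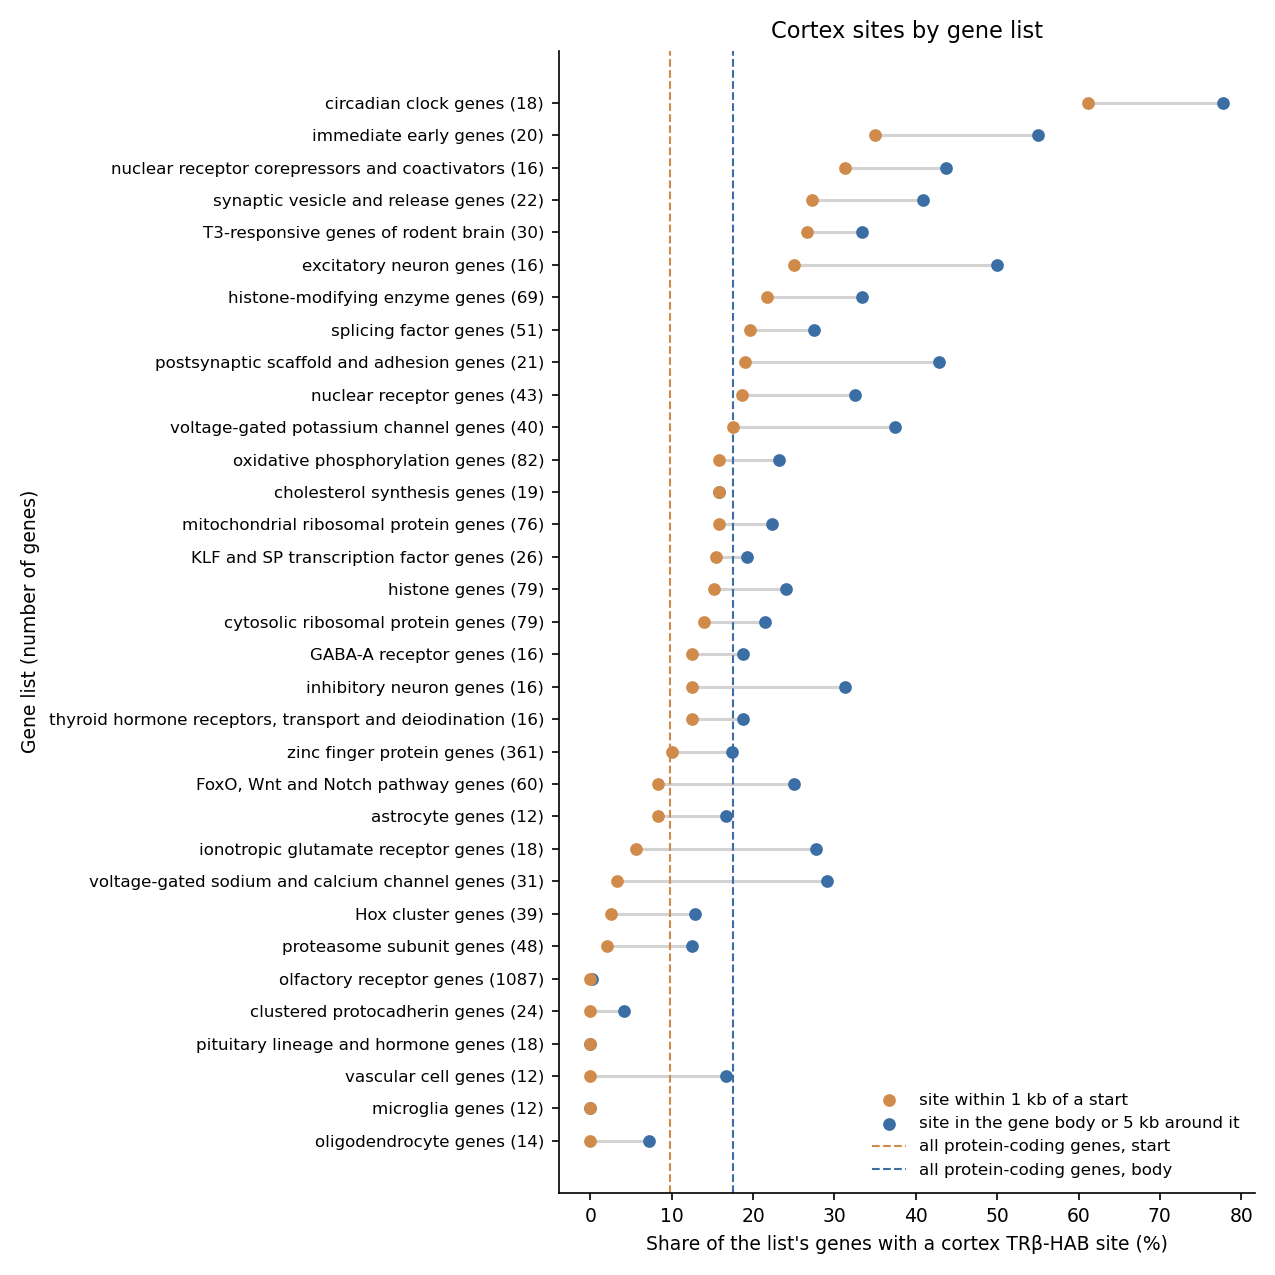
Share (%) of the protein-coding genes of each of 33 lists that had a cortex site within 1 kb of a start (orange) or in the gene body or 5 kb around it (blue), with the number of genes in brackets and dashed lines at 9.78% and 17.5% for all protein-coding genes. The circadian clock list is highest on both measures, and the microglia, pituitary lineage and olfactory receptor lists are at or near 0.

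Among regulators, histone-modifying enzyme genes had 15 of 69 at a start (21.7%) and 23 in or near the body. This list does not include *Suv420h2*, whose site is described above. Beyond *Dot1l* and *Kdm6b*, the strongest sites of the list were those of *Carm1* (46 HAB and 5 control reads), *Setd5* (39 and 11), both at a start, *Hdac4* (29 and none, in an intron) and *Kdm5b* (31 and 7). Of 43 nuclear receptor genes, 8 had a site at a start and 14 in or near the body, with *Nr2c2* at 45 against 11 and *Esrra* at 24 against 1 read. KLF and SP factor genes had 4 of 26 at a start. *Klf10* held 74 HAB and 15 control reads, and *Klf13* had 57 against 11 at a start and a site in its body with the 11-base repeat shown above. FoxO, Wnt and Notch pathway genes had 5 of 60 at a start, below the share of all genes, and 15 in or near the body. The strongest was 61 against 5 reads, 25161 bp from the start of *Wnt10a*, followed by *Notch1* with 43 and 5 in its body.

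Among housekeeping lists the start-site share ranged from 2.08% of proteasome genes to 19.6% of splicing factor genes, against 9.78% of all genes. Start-site counts were 10 of 51 for splicing factor genes, 13 of 82 for oxidative phosphorylation genes, 12 of 76 for mitochondrial and 11 of 79 for cytosolic ribosomal protein genes, 12 of 79 for histone genes, 3 of 19 for cholesterol synthesis genes and 1 of 48 for proteasome genes. The strongest of these were *Hnrnpl* (82 and 6) and *Ndufs4*, a complex I subunit gene (62 and 3). Zinc finger protein genes had 36 of 361 (9.97%). Hox, clustered protocadherin and GABA-A receptor genes had 1 of 39, none of 24 and 2 of 16. Of 1087 olfactory receptor genes none had a site at a start and 2 in or near the body.

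**Figure D5:**
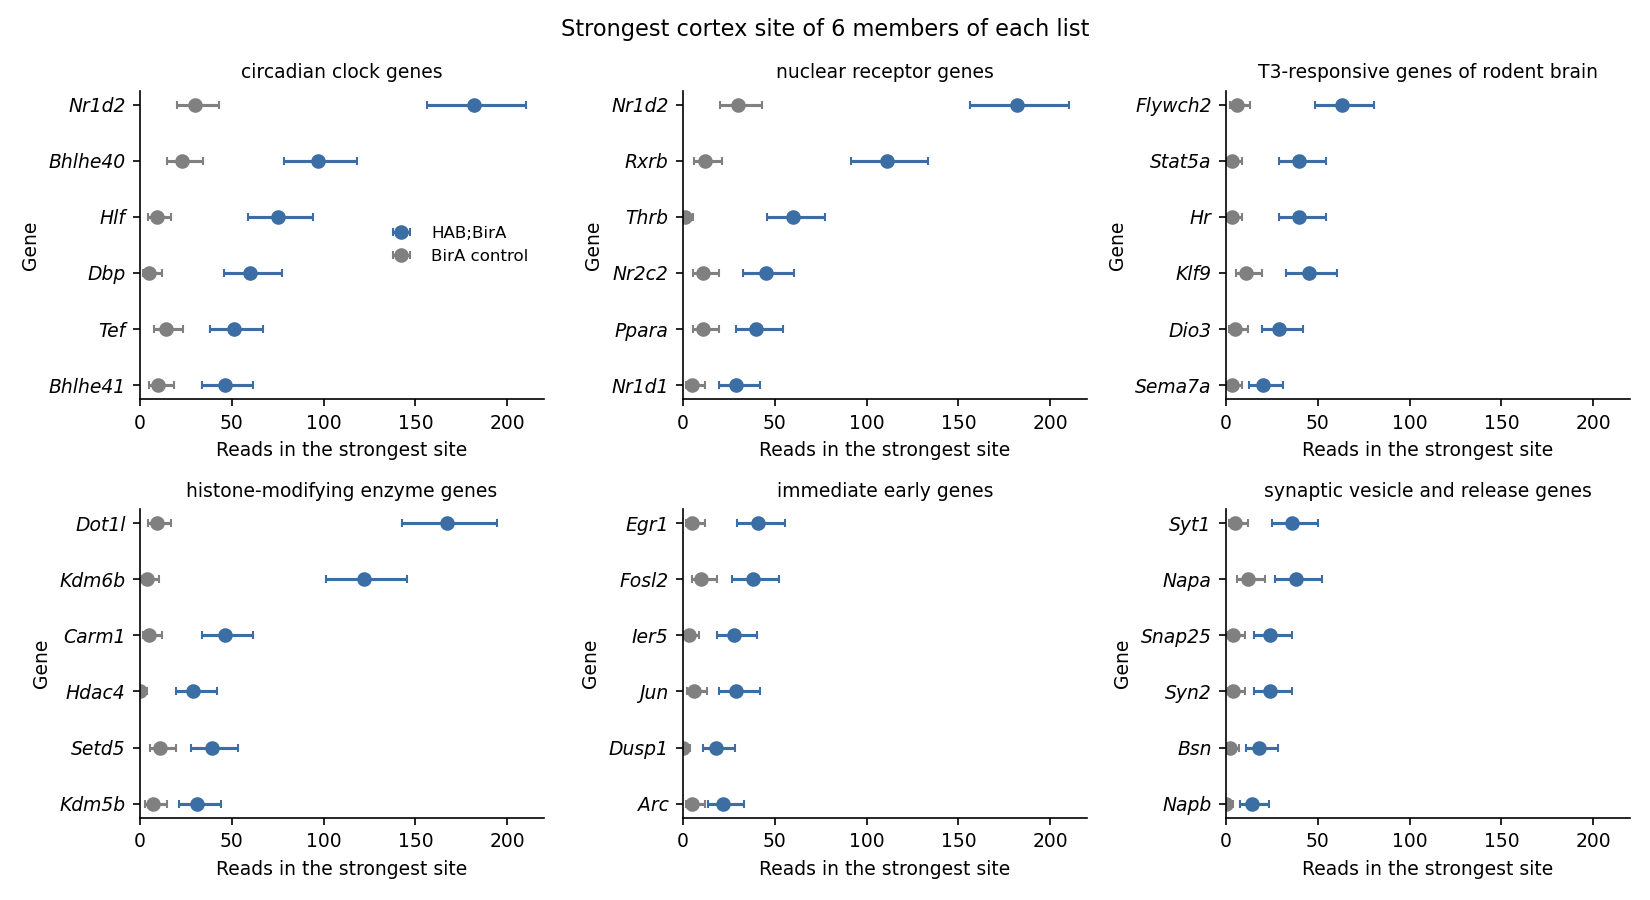
HAB;BirA reads (blue) and BirA control reads (grey) in the strongest cortex site of the 6 members with the largest excess in each of 6 gene lists, with exact 95% Poisson intervals and the same scale in every panel. HAB reads exceed control reads at every site shown, which follows from how sites were called and picked and is no test of the genotypes. The synaptic genes lie at 14 to 38 HAB reads.

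Most gene models with a site in or near the body had 1 site (3225 models), 507 had 2 and 162 had 3 or more. The highest counts, 33 and 11, belonged to *Gm20388* and *Fgfr2*, whose annotated models span 4434882 and 3009069 bp. *Gabbr2*, the subunit of the GABA-B receptor that couples to G proteins, had 10 sites over 329556 bp with 210 HAB and 19 control reads in all, the strongest of 45 HAB reads and no control read. *Ttc7* and *Arfip1* had 7 each, with 131 against 13 and 92 against 6 reads. Other genes with many sites, *Gm2974*, *Gm10406*, *Gm3629*, *Gm5796* and *Gm8108*, lie at the start of chromosome 14 among near-identical gene copies, where some models overlap and share sites. The 75 sites between 3035151 and 8098150 of that chromosome held 1337 HAB and 243 control reads, had a median GC content of 46.0% and overlapped no pituitary site, and their placement is uncertain.

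Sites with gaps of at most 10 kb formed 50 clusters of 3 or more, which held 165 sites (3.20%). Of these, 37 had 3 sites, 11 had 4 and 2 had 5, and their median span was 9450 bp. A cluster of 5 at *Gm8108* and *Gm3115* lay in the repeated stretch of chromosome 14 and held 216 HAB and 65 control reads. The other cluster of 5 spanned 20450 bp at *Reep2* and *Egr1* and held 95 against 11 reads. *Nfic*, the gene of a nuclear factor I protein, had 4 sites within 3550 bp of its body with 141 against 16 reads, 3 of them overlapping pituitary sites. Of the 50 clusters, 32 included a start-site site and 24 a site that overlapped a pituitary site.

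At *Ky*, the gene of kyphoscoliosis peptidase, the cortex site 5978 bp upstream held 65 HAB and 3 control reads and overlapped a narrow pituitary site of 10 HAB reads and no control read. *Gt(ROSA)26Sor*, the locus of the BirA allele that both groups carry, had no site in the list.

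Density of sites differed between chromosomes, from 0.402 per Mb on chromosome X to 3.46 per Mb on chromosome 11. Set against protein-coding genes, chromosome X had 7.19 sites per 100 genes, the lowest, and chromosome 12 had 33.5, the highest. No site was listed on chromosome Y. The mice were male, and the part of the single X copy in these values was not tested.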

How the data were processed

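ChAP-seq of untreated cerebral cortex comprised 3 HAB;BirA and 3 BirA control libraries. Per the labels and methods, the mm9 build was used, all libraries of a genotype were pooled, and SICER 1.1 called peaks in 50 bp windows as HAB;BirA against control. The aligner of the ChAP-seq reads is not given in the sources used here, and the submitters' processing notes name Bowtie2 without a role. The deposited count columns hold unnormalized reads per peak. The authors' p-value, false discovery rate and fold (ratio over control) are in the same list, and of these the false discovery rate alone was used, for an alternative. The T3-regulated pituitary regions were used by position, and the adjusted p-value deposited with them was not used. In the supplement the merged cortex totals are not the sums of the libraries, so which libraries entered the merge is not known here, and depth per library was not analysed here. The RNA-seq table, which holds pituitary only, was not used.

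Coordinates are those of mm9, counted from 1. A site was start-site within 1 kb of any GENCODE transcript start on that build, and otherwise belonged to the protein-coding gene around it or with the nearest start. The study used RefSeq starts. Both strands of mm9 were searched for direct repeats with at most 2 mismatches over 12 bases, beside regions of the same length 10 kb away. Scripts were tested on simulated sequences with planted repeats. Shares of sites with a repeat were compared by Fisher's exact test, two-sided, with Benjamini-Hochberg adjustment over 2 tests. Overlap means at least 1 bp. The lists of genes were compared by counts and were not tested.

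Named genes are those of the 25 sites with the largest excess, of the 5 with the most control reads, of the 5 largest clusters, the 10 genes with the most sites, at most 6 members per list, and *Thra*, *Thrb*, *Gt(ROSA)26Sor*, *Gh*, *Ky* and *Dot1l*, with some list members named for having no site. The members and gene lists were chosen with earlier results of these data known. Tools were Python 3.11.15 with pandas 2.3.3, numpy 2.4.6, scipy 1.17.1, pysam 0.24.0 and matplotlib 3.10.9.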

Additional observations from a re-analysis of the deposited data

How the results depend on the processing

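No paired analysis was possible because the replicates of each genotype are merged in 1 column. Of the 100 strongest sites by excess, 87 stayed among the 100 strongest by HAB reads alone, 43 by HAB reads per kb and 13 by the ratio of HAB to control reads plus 1. The start-site share of 41.7% was 38.5% within 500 bp, 46.0% within 2 kb, 39.6% for protein-coding starts, 38.3% at a false discovery rate of at most 1e-10 and 34.8% of sites with 3 control reads or fewer. The 50 clusters became 27 at gaps of 5 kb, 101 at 20 kb and 6 at the stricter false discovery rate, and 44 without the sites at the start of chromosome 14 and at *9230019H11Rik*, an alternative chosen after seeing the data. The share of genes with a site was 25.6% within 20 kb, 13.5% in the body alone and 8.22% at the stricter rate. The excess of DR4 in distal over start-site sites, 2.41 percentage points, was 0.51 (p = 0.101) with 1 mismatch and 1.51 (p = 0.299) at the stricter rate by Fisher's exact test, and kept its side of the threshold with 3 mismatches and in 300 bp around the midpoint. The lower DR4 share than in the pituitary kept its direction and side in all 4 alternatives, from -15.3 to -3.20 points. The overlap with pituitary sites fell from 17.0% to 11.7% when at least 50% of the cortex site had to be covered. Why these values moved was not tested. With a median of 13 reads per site, ranks among weak sites are within counting error, and no site has a replicate error.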

Other observations

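Non-coding genes held 111 of the start-site sites. By annotation 39 were processed transcripts, 27 lincRNAs, 23 pseudogenes, 8 miRNAs and 8 snoRNAs. Beside *2410080I02Rik*, *Pisd-ps2* and *Neat1*, the strongest were at *Gm9530* with 68 HAB and 5 control reads and at *Malat1*, a nuclear long RNA next to *Neat1* in the genome, with 56 and 13. The site at *Mirlet7c-2*, a let-7 precursor 28413 bp from the start of *Ppara*, held 33 HAB and 3 control reads and a DR4 with 11 matching bases. These sites were chosen after their values were seen.

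By the ratio of HAB to control reads, each plus 1, the order differed from that by excess. *Sorl1* and a *Gabbr2* site of 45 HAB reads and no control read were highest, both at 46. The next were sites in introns or outside genes without control reads, at *Hnrnpul1* and *Rapgef1* (both at a ratio of 44), *Adarb1* (39), and *Msra* and *Gli2* (both 35). They too were chosen after their values were seen.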
